A study of Homo sapiens with 16 samples.

Results

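The inflammatory cytokine genes described here are IL1A, IL1B, IL6, IL11, LIF, CXCL1, CXCL2, CXCL8, CCL2 and CSF2, chosen by symbol as secreted inflammatory signals of HT-1080 cells. All 10 were found among the 61906 genes of both short-read tables, and 8 of them had counts in HT-1080; CXCL1 and CXCL2 had none there. The samples come from HT-1080, a human fibrosarcoma line, and HEK-293T, a human embryonic kidney line that carries the SV40 large T antigen. Cells of either line were transfected by lipid reagent with 20 nM siRNA, either siHNRNPH1, which targets HNRNPH1, or siNegative, the control, and RNA was taken 48 hours later. HNRNPH1 is an RNA-binding protein that regulates splicing. Each of the 4 groups has 3 short-read libraries, labelled as biological replicates, and 1 pool for full-length cDNA sequencing (IsoSeq), 16 samples in all. No untransfected cells are among these samples, both arms carry the transfection, and the medium differs with the line (EMEM for HT-1080, DMEM for HEK-293T).

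Cytokines are secreted proteins that carry signals between cells. IL-1 alpha and IL-1 beta bind the IL-1 receptor and lead to activation of the transcription factor NF-kB, which in turn drives genes for chemokines, IL-6 and its own inhibitors. IL-6, IL-11 and LIF each bind their own receptor chain and share the signalling subunit gp130 (IL6ST). CXCL1, CXCL2 and CXCL8 attract neutrophils, CCL2 attracts monocytes, and GM-CSF, the product of CSF2, supports the growth and activation of myeloid cells. Fibroblast-like cells are a known source of several of these proteins.

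RefSeq promoter windows, 250 bases before to 50 bases after a transcript start (build GRCh38.p14), were found by symbol for 8 of the 10 genes. They were searched on both strands for GGANTTNCC, letters of the NF-kB (kB) motif, and for TGANTCA, letters of the AP-1 motif. No match of one motif overlaps a match of the other, and the matches are shown so that the letters can be read beside each gene's values. The same letters occur in genes that rose, fell or were not called: AP-1 letters in IL11, CXCL8 and IL1A, and kB letters in CXCL8 and IL6. Each line gives 5′ to 3′ on the strand of the gene, with the matched letters in capitals.

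CXCL8 kB, chr4:73740471-73740493, plus strand: aaatcgtGGAATTTCCtctgaca

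CXCL8 AP-1, chr4:73740425-73740445, plus strand: agtgtgaTGACTCAggtttgc

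IL6 kB, chr7:22727121-22727143, plus strand: aaatgtgGGATTTTCCcatgagt

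CXCL1 kB, chr4:73869308-73869330, plus strand: aactccgGGAATTTCCctggccc

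CXCL2 kB, chr4:74099257-74099279, minus strand: agctccgGGAATTTCCctggccc

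IL11 AP-1, chr19:55370546-55370566, minus strand: gggagggTGAGTCAggatgtg

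IL1A AP-1, first match, chr2:112784492-112784512, minus strand: agaagacTGACTCAggcttaa

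IL1A AP-1, second match, chr2:112784442-112784462, minus strand: tggcgttTGAGTCAgcaaagg

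The kB letters lie 91 bases before the start of CXCL8, 72 before that of IL6, 78 before that of CXCL1 and 77 before that of CXCL2. The AP-1 letters lie 137 bases before the start of CXCL8 and 96 before that of IL11. IL1A has 2 windows and 2 matches to AP-1. The first match lies 12 bases before one start and 105 before the other, and the second lies 38 bases after the one and 55 before the other. Of the 8 genes with a window, 4 hold the kB letters and 3 the AP-1 letters. Of all 35116 windows in the table, 4.27% and 7.71% hold them, which are shares of windows and not of genes. The stretches of CXCL1 and CXCL2 are nearly the same, so their kB matches are not independent. The window of CXCL3, a near copy of CXCL2 that is not among the 10 genes, holds the same 23 letters as that of CXCL2, at chr4:74038752-74038774 on the minus strand. The windows of IL1B and CSF2 hold neither motif, which says only that these letters are not in those windows.

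HT-1080 libraries held 27.3 to 32.7 M (mega) expected counts and HEK-293T libraries 107.7 to 121.0 M. Levels below are CPM, a gene's count per M counts of its library. HNRNPH1 itself, the targeted gene, fell in HT-1080 from 619 ± 14.5 to 230.3 ± 1.61 CPM (SD, n = 3), with a log2 fold change of -1.49 and an adjusted p of 6.76e-09. In HEK-293T it fell from 1111 ± 8.76 to 335 ± 87.7 CPM, with a log2 fold change of -1.76 and an adjusted p of 0.00939. Libraries of 1 group correlated with a Pearson r of 0.996 to 0.999 across tested genes, except that replicate 1 of siHNRNPH1 in HEK-293T reached 0.965 and 0.962 with its own group. Results on the siRNA effect in HEK-293T are therefore also given without it. Leaving it out raised the share of genes called in that line from 10.0% to 61.6% of those tested. Of the 9 leukocyte markers, PTPRC, CD3E, TYROBP and AIF1 had 0 counts in all HT-1080 libraries. The summed level of the 9 was 4.78 to 4.82 CPM with siNegative and 2.81 to 2.94 CPM with siHNRNPH1. Both tested members of that list fell, CSF1R from 3.63 ± 0.228 to 2.57 ± 0.196 CPM and ITGAM from 0.961 ± 0.23 to 0.0102 ± 0.0177 CPM (SD, n = 3). Their part in the results below was not tested. The 9 mesenchymal markers summed to 11004 to 11064 and 10363 to 10423 CPM in the 2 HT-1080 groups, against 377 to 527 CPM in HEK-293T. The 8 markers of HEK-293 cells summed to 205 to 220.3 CPM in HT-1080 and 414 to 719.6 CPM in HEK-293T, and NEFH, SOX11 and STMN2 were at 0 in all HT-1080 libraries.

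In HT-1080, 8 of the 10 genes had enough counts to be tested with edgeR's quasi-likelihood test. After siHNRNPH1, CSF2, CXCL8, CCL2, IL1A, IL1B and LIF fell, IL11 rose, and IL6 did not pass the test at a Benjamini-Hochberg adjusted p of 0.05. CXCL1 and CXCL2 had no counts. The 7 calls among 8 tested genes stand beside a background of 65.3% of the 16145 genes tested. Of those 16145 genes, 32.7% were called higher and 32.6% lower. The 10 genes were chosen with earlier results of these data known, so the count of calls is a description and not a test. The median log2 fold change was -0.68 over the 8 genes and 0.01 over all genes tested. Changes of at least 1 on the log2 scale, seen in 4 of the 8, were called in 15.6% of all genes. In 6 of the 8 all siHNRNPH1 libraries lay below all siNegative libraries and in 1 they lay above, beside 30.6% and 39.9% of all genes tested. In bulk RNA, fewer cells that make a transcript and less of it per cell cannot be told apart.

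**Figure D1:**
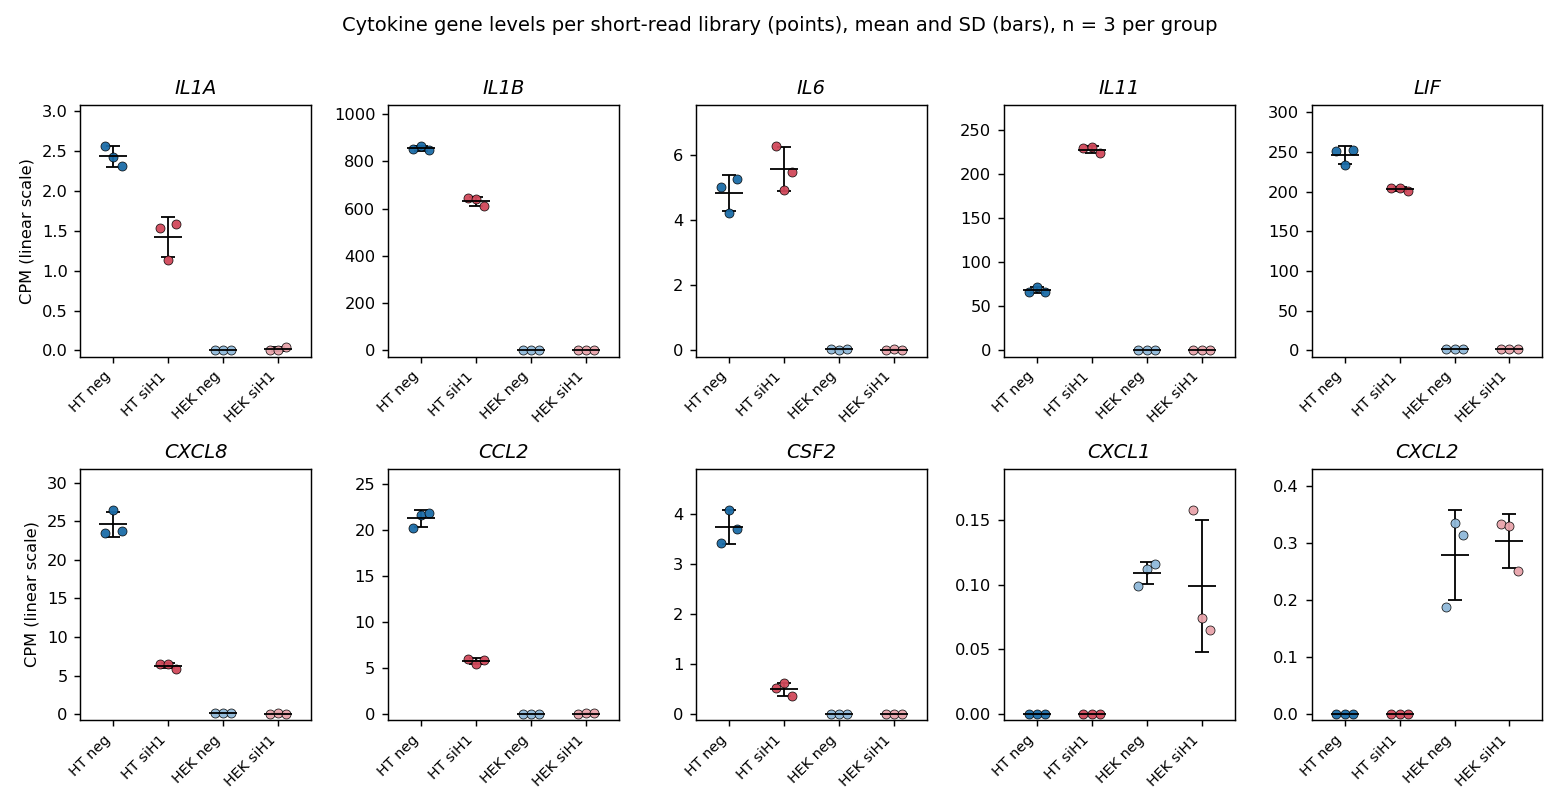
Levels of the 10 cytokine genes in each of the 12 short-read libraries, in CPM on linear axes that differ between panels. HT and HEK mark the cell lines, neg is siNegative and siH1 is siHNRNPH1. Points are libraries, wide bars the mean and whiskers the SD of 3. For CSF2, CXCL8 and CCL2 the siNegative libraries of HT-1080 lie far above the others, for IL11 the siHNRNPH1 libraries do, and CXCL1 and CXCL2 have counts in HEK-293T only.

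The IL-1 genes both fell. IL1A, which encodes IL-1 alpha, had 70, 73 and 70 counts with siNegative and 45, 37 and 45 with siHNRNPH1. These are 2.43 ± 0.126 and 1.42 ± 0.248 CPM (SD, n = 3), and the groups did not overlap. This is a log2 fold change of -0.85 (SE 0.17), with an adjusted p of 0.00147 by edgeR's quasi-likelihood test. A fit over all 12 libraries gave -0.86 and an adjusted p of 0.184, which ends the call.

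IL1B, which encodes IL-1 beta, stood at 853, 864 and 846 CPM with siNegative and at 645, 639 and 609 CPM with siHNRNPH1. The counts behind these values were 17348 to 26011 per library. All 3 siHNRNPH1 libraries were lower than any siNegative library. On the log2 scale the change was -0.51 (SE 0.05), with an adjusted p of 6.92e-06.

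The 3 cytokines that signal through gp130 behaved differently from each other. IL11, known for roles in fibrosis and in stromal cells, stood at 66.5, 72.4 and 66.4 CPM with siNegative. With siHNRNPH1 it stood at 230.1, 231 and 224 CPM. The groups lie far apart, and IL11 was the only one of the 10 genes called higher. This is a 3.18-fold rise (log2 fold change 1.67, SE 0.05), with an adjusted p of 9.08e-09. LIF, which maintains stem cells and acts in inflammation, stood at 251, 233 and 253 CPM with siNegative and at 204, 205 and 200.2 CPM with siHNRNPH1. The groups did not overlap, and the change was -0.34 on the log2 scale (SE 0.04), with an adjusted p of 9.04e-05.

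IL6 had 137, 127 and 159 counts with siNegative and 183, 161 and 156 with siHNRNPH1. The mean was 4.83 ± 0.543 CPM in the first group and 5.56 ± 0.672 CPM in the second (SD, n = 3), and the groups overlapped. The log2 fold change of 0.13 (SE 0.12) did not pass the test (adjusted p = 0.369). Under 13 alternative settings it ran from 0.04 to 0.22, and none was called. IL6 and CXCL8 both hold the kB letters in the windows shown above, while their values in HT-1080 differed: CXCL8 fell and IL6 was not called. That is a description of the windows, and no factor was measured at them.

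The chemokines CXCL8 and CCL2 both fell. CXCL8, which encodes interleukin-8, had 641, 797 and 718 counts with siNegative and 189, 211 and 168 with siHNRNPH1. Its level fell from 24.6 ± 1.66 to 6.28 ± 0.328 CPM (SD, n = 3). Its log2 fold change was -2.03 (SE 0.08), at an adjusted p of 4.14e-08. CCL2, the monocyte chemokine MCP-1, had 552, 652 and 664 counts with siNegative and 175, 177 and 167 with siHNRNPH1. Its level fell from 21.3 ± 0.921 to 5.76 ± 0.301 CPM (SD, n = 3), with a log2 fold change of -1.95 (SE 0.08) and an adjusted p of 3.16e-08. Neither gene's groups overlapped, and all 13 alternative settings called both lower.

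CXCL1 and CXCL2 had 0 counts in each of the 6 HT-1080 libraries. A count of 0 over the 3 siNegative libraries allows up to 0.0342 CPM, and over the 3 siHNRNPH1 libraries up to 0.0332 CPM, for counting error only. Their near copy CXCL3 had 184, 232 and 209 counts with siNegative and 26, 32 and 26 with siHNRNPH1, and it changed by -3.0 on the log2 scale (SE 0.13), with an adjusted p of 6.85e-08. Because RSEM divides reads among similar transcripts, the split between CXCL1, CXCL2 and CXCL3 is uncertain. In HT-1080 the summed counts of the 3 genes equal those of CXCL3, so their log2 fold change of -3.0 is no separate check of the split. In HEK-293T the sum gave a log2 fold change of -0.02 (adjusted p = 0.953). There CXCL3 alone had a log2 fold change of -0.07 (adjusted p = 0.891), and of 0.13 (adjusted p = 0.658) without siHNRNPH1 replicate 1.

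CSF2 had the largest log2 fold change of the 8 tested genes and few counts. It had 93, 123 and 112 counts with siNegative and 15, 20 and 10 with siHNRNPH1. The level fell from 3.73 ± 0.34 to 0.492 ± 0.132 CPM (SD, n = 3), and the highest siHNRNPH1 library, at 0.612 CPM, lay below the lowest siNegative library, at 3.41 CPM. The change was -2.97 on the log2 scale (SE 0.20), with an adjusted p of 1.03e-06. Over 13 alternative settings it ran from -3.16 to -2.78, and all of them called it.

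**Figure D2:**
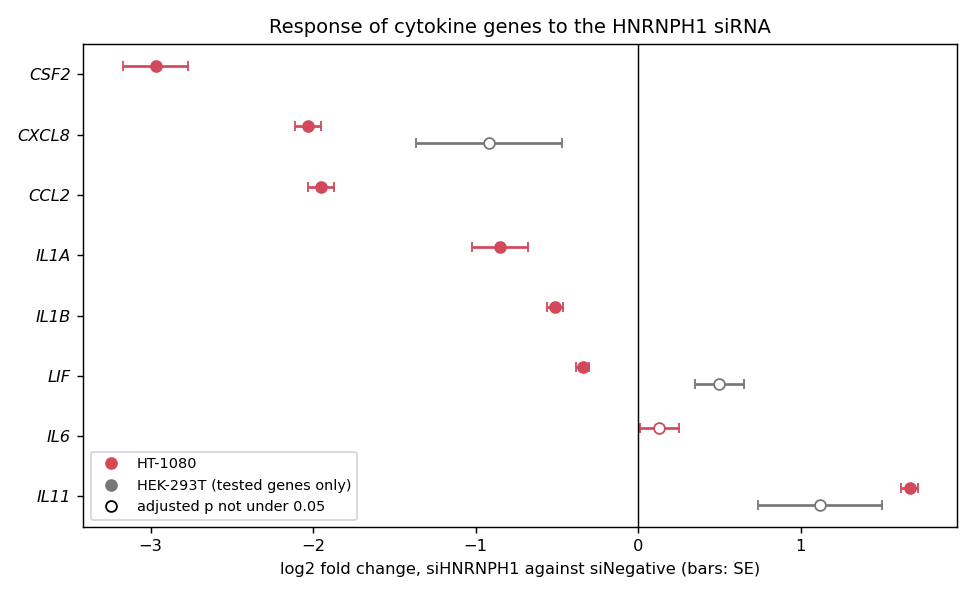
Log2 fold change of siHNRNPH1 against siNegative for each cytokine gene tested in HT-1080 (red) and, where tested, in HEK-293T (grey), with SE as whiskers. Open points had an adjusted p of 0.05 or more. In HT-1080 the values run from -2.97 for CSF2 to 1.67 for IL11, and LIF lies on opposite sides of 0 in the 2 lines.

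The short-read tables list 38 transcripts of the 10 genes, of which 24 were tested in HT-1080. Of these, 2 were called higher and 8 lower, beside 7.91% and 8.18% of all transcripts (16.1% in either direction). In most genes 1 transcript held nearly all counts in both groups. The share of ENST00000263341.7 in IL1B was 97.5% and 97.4%, that of ENST00000249075.4 in LIF 99.1% and 97.9%, and that of ENST00000225831.4 in CCL2 88.3% in both groups. In CXCL8, ENST00000307407.8 held 91.5% and 94.5%. IL1A and CSF2 have a single listed transcript.

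Of the 24 tested transcripts, 8 in 5 genes (CXCL8, IL11, IL1B, IL6 and LIF) had shares that did not overlap between the groups. Each had an exact two-sided permutation p of 0.1, the smallest that 3 against 3 can give. How often this holds over all tested transcripts was not computed, so the 8 have no background beside them. Shares within a gene depend on each other, and those of the 2 LIF transcripts are complements. RSEM also divides reads among the transcripts of 1 gene, and the uncertainty of that division is not part of these shares or tests. The make-up of IL11 and IL6 is described further, and their minor transcripts were chosen after their values had been seen. In IL11 the main transcript, ENST00000264563.7, held 97.4% ± 0.34 and 96.7% ± 0.491 of the counts (SD, n = 3). The minor ENST00000590625.5 held 1.24%, 1.04% and 0.657% with siNegative and 1.76%, 2.42% and 2.76% with siHNRNPH1. The counts of this transcript rose with a log2 fold change of 2.94 (SE 0.34) and an adjusted p of 0.00327. The share of another minor transcript, ENST00000587093.1, moved the other way, from 1.61% ± 0.402 to 0.943% ± 0.0275 (SD, n = 3). The counts of ENST00000587093.1 had a log2 fold change of 0.95, which did not pass the test (adjusted p = 0.059). In IL6, ENST00000258743.10 held 53.8%, 65.1% and 60.8% with siNegative and 41.8%, 50.1% and 37.6% with siHNRNPH1. These shares did not overlap, while the change of that transcript's counts, -0.29 on the log2 scale, did not pass the test (adjusted p = 0.414). ENST00000464710.2 held 28.7% ± 4.34 and 34.7% ± 6.3 (SD, n = 3), and those groups overlapped.

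The IsoSeq pools list transcript models with their exons and no read counts, so a model counts once whatever its abundance, and 1 pool per group gives no replicate check. The HT-1080 pools hold 72186 models with siNegative and 68078 with siHNRNPH1. With siNegative and siHNRNPH1 respectively, IL1B had 12 and 10 models, LIF 9 and 14, IL11 2 and 6, CXCL8 2 and 2, and CCL2 1 and 1. IL6 had 1 model, with siHNRNPH1, and IL1A, CSF2, CXCL1 and CXCL2 had none. CXCL3 had 2 models with siNegative and none with siHNRNPH1. In the HEK-293T pools only LIF had a model, 1 with siHNRNPH1.

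The IL11 models differed at exon 2, which lies at chr19:55368769-55368941 on the minus strand in the files' coordinates and is 173 bases long. Both siNegative models contain it. Of the 6 siHNRNPH1 models, 4 contain it, 1 lacks it, and in 1 it is joined to exon 3 across the 199 bases of the intron between them, as a single exon of 459 bases. At these numbers of models a difference between the pools was not detectable. The junctions that link exons 3, 4 and 5 are the same in all 8 models, and the 3′ ends differ.

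**Figure D3:**
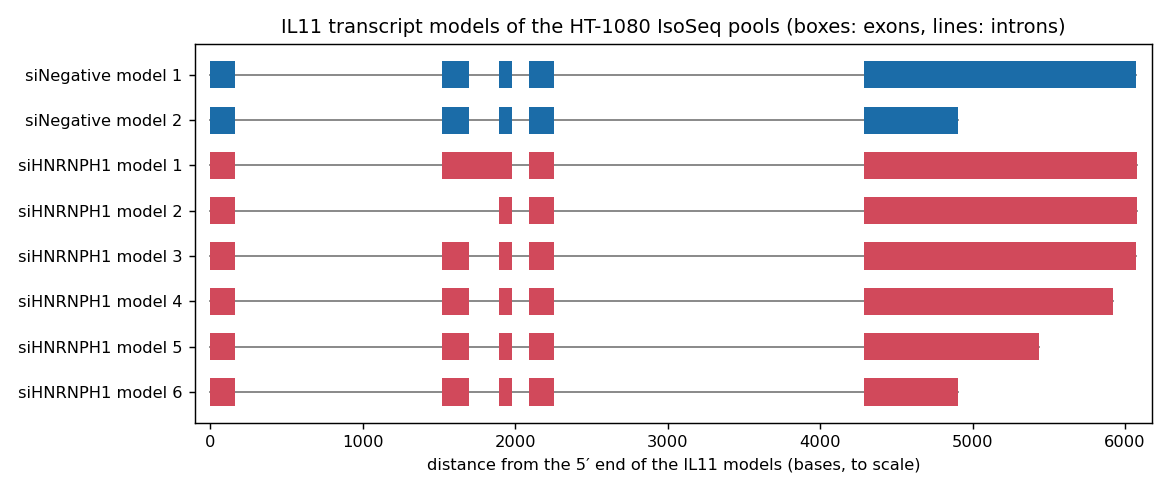
IL11 transcript models of the HT-1080 IsoSeq pools, drawn to scale from the 5′ end in bases, with boxes for exons and lines for introns. The 2 siNegative models and 4 of the 6 siHNRNPH1 models have 5 exons with the same junctions; 1 siHNRNPH1 model lacks exon 2 and 1 joins it to exon 3.

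HEK-293T served as the contrast in which these genes are mostly silent. Between the siNegative groups, 8 of the 9 cytokine genes tested were higher in HT-1080 and CXCL2 was lower. IL1A, IL1B and CSF2, with 0 counts in the HEK-293T siNegative libraries, and CCL2, with 1, passed the count filter only through HT-1080. CXCL2, with 0 counts in HT-1080, passed it only through HEK-293T. The direction of these genes was fixed by the filter, and all 10 genes were chosen as signals of HT-1080. The count of 8 is therefore a description and not a test. In that comparison 86.6% of all genes tested were called, 40.8% as higher and 45.8% as lower in HT-1080. The difference goes with the cell line, its medium and the depth of its libraries, which cannot be told apart here.

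CSF2 had 0 counts in all 6 HEK-293T libraries. IL1A had 0 counts in the siNegative libraries and 0, 0 and 5 with siHNRNPH1, and IL1B had 0 with siNegative and 1, 0 and 0 with siHNRNPH1. Against the level that a count of 0 over the siNegative group allows, siNegative levels in HT-1080 were at least 282-fold higher for IL1A, at least 99178-fold for IL1B and at least 434-fold for CSF2. The IL1B bound is far above the others because its HT-1080 counts are large.

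The remaining genes had some counts in HEK-293T. IL6 had 4, 1 and 7 with siNegative and 1, 4 and 2 with siHNRNPH1, and its siNegative level was 140-fold higher in HT-1080 (exact 95% counting interval 79.3 to 273). For LIF the ratio was 171-fold (156 to 187), for CXCL8 204-fold (150.3 to 284) and for IL11 497-fold (374 to 675). CCL2 had 1 count in the 3 siNegative libraries of HEK-293T, so that its ratio of 7419 has an interval of 1330 to 293190. CXCL1 and CXCL2 ran the other way. CXCL1 had 11, 13 and 14 counts in HEK-293T with siNegative and was at least 3.19-fold higher there than in HT-1080, and CXCL2 had 21, 39 and 38 and was at least 8.23-fold higher. Both bounds cover counting error only and take the uncertain split of reads with CXCL3 as given. CXCL3 stood at 7.12 CPM in HT-1080 and at 0.478 CPM in HEK-293T with siNegative. Thus the 2 genes without counts in HT-1080 had counts in HEK-293T, at a mean of 0.109 and 0.28 CPM.

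Under siHNRNPH1 in HEK-293T, 5 of the cytokine genes could be tested and edgeR called none of them, beside 10.0% of the 19966 genes tested. Of the 5, 2 had an unadjusted p under 0.05, and DESeq2 called 1, LIF. In LIF and IL11 all siHNRNPH1 libraries lay above all siNegative libraries, which held for 22.7% of all genes tested. LIF had 155, 189 and 157 counts with siNegative and 229, 237 and 227 with siHNRNPH1. These are 1.44 ± 0.169 and 2.06 ± 0.0891 CPM (SD, n = 3). The log2 fold change of 0.50 (SE 0.15) had an adjusted p of 0.104. Without siHNRNPH1 replicate 1, the library that stands apart, it was 0.44 with an adjusted p of 0.00714, which makes it a call. LIF and IL11 are then 2 calls among the 5 tested genes, beside 61.6% of the 20376 genes tested in that fit.

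IL11 had 21, 9 and 18 counts with siNegative in HEK-293T and 37, 40 and 26 with siHNRNPH1. The log2 fold change of 1.12 (SE 0.38) had an adjusted p of 0.127. Without siHNRNPH1 replicate 1 the values were 0.99 and an adjusted p of 0.0313, again a call. CXCL8 had 12, 19 and 11 counts with siNegative and 4, 12 and 6 with siHNRNPH1, groups that overlapped, with a log2 fold change of -0.92 (adjusted p = 0.257) and -0.67 without replicate 1. CXCL1 had 17, 9 and 7 counts with siHNRNPH1, for a log2 fold change of -0.16 (adjusted p = 0.85) and -0.69 without replicate 1. CXCL2 had 36, 40 and 27 counts with siHNRNPH1, for a log2 fold change of 0.10 (adjusted p = 0.861) and 0.00 without replicate 1. These 3 chemokines had only 4 to 40 counts per library in HEK-293T, which limits what the tests could detect.

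CCL2 was below the count filter of the HEK-293T test. It had 0, 0 and 1 counts with siNegative and 3, 11 and 7 with siHNRNPH1. The ratio of the summed counts, 21 against 1 and scaled for depth, was 21.8, with an exact 95% counting interval of 3.5 to 899. Without siHNRNPH1 replicate 1 it was 27.4 (4.33 to 1143), from 18 counts against 1. With no filter edgeR gave an adjusted p of 0.0877, and the fit of all 12 libraries gave 0.00194, a call. The groups did not overlap, and the direction was opposite to that in HT-1080.

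Whether the siRNA effect differed between the lines was tested as an interaction in edgeR over all 12 libraries, in which 19.0% of 21276 genes were called. Among the 9 cytokine genes in that fit, LIF, CXCL8 and CCL2 were called, each with a lower response in HT-1080, as were 10.8% of all genes. For LIF the difference of the log2 fold changes was -0.91 (SE 0.15) with an adjusted p of 0.00182, and all 18 alternative settings called it. For CCL2 the difference was -5.77 (adjusted p = 1.53e-04), called in all 18 alternatives, and it rests on the 1 siNegative count in HEK-293T. For CXCL8 the difference was -1.20 (adjusted p = 0.0494), and only 6 of 18 alternatives called it. It was -1.42 (adjusted p = 0.0104) without siHNRNPH1 replicate 1 of HEK-293T and -0.76 (adjusted p = 0.325) without replicate 2. For IL11, with a difference of 0.49 (adjusted p = 0.34), and IL6, with 0.78 (adjusted p = 0.436), no difference between the lines was shown. For IL1A, IL1B, CSF2 and CXCL2 a group at 0 leaves the fitted difference without a usable value.

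The other genes of these pathways were taken from 8 lists, drawn up with earlier results of these data known. The counts and medians of the lists are therefore a description and not a test. Their counts of called genes are to be read beside the 65.3% of all genes called in HT-1080. Counts by direction are to be read beside 32.7% called higher and 32.6% called lower. Of 28 other cytokines and chemokines, 12 were tested in HT-1080, and 11 fell and 1 rose, with a median log2 fold change of -0.83 (0.01 over all genes). DESeq2 called 9 of the 12. The 4 with the largest changes were CCL5, a T cell and monocyte chemokine (-3.92), IL32 (-3.42), CXCL3 (-3.0) and IL12A, a subunit of interleukin-12 (-1.64). CCL5 was low, at 1.02 ± 0.254 CPM with siNegative and 0.0688 ± 0.0904 CPM with siHNRNPH1 (SD, n = 3). CLCF1, a ligand of the gp130 family, was the gene that rose (0.44) and was named after its value was seen.

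Most of the NF-kB genes that were tested fell. Of 14 tested factors and signalling genes, 9 fell, 1 rose and 4 were not called, with a median of -0.25. NFKB2, which encodes the p100 precursor of p52, fell from 226 ± 1.21 to 38.8 ± 0.916 CPM (SD, n = 3), a log2 fold change of -2.61. MAP3K14, the kinase NIK that acts on p100, fell by 1.64 and RELB, the partner of p52, by 1.46 on the log2 scale. TRAF6, an adaptor downstream of the IL-1 receptor, was the gene that rose (0.48, named after its value was seen). Of 13 known targets that feed back on or report NF-kB activity, 9 fell, 2 rose and 2 were not called, with a median of -1.18. BIRC3, an inhibitor of apoptosis that also restrains NIK, fell from 40.8 ± 3.97 to 0.413 ± 0.0774 CPM (SD, n = 3), a log2 fold change of -6.69. TRAF1, an adaptor of TNF receptors, fell by 4.95, ICAM1, an adhesion molecule, by 4.88, and NFKBIE, an inhibitor of NF-kB, by 3.0 on the log2 scale. PTGS2, the prostaglandin synthase COX-2, rose from 4.67 ± 0.585 to 40.7 ± 0.41 CPM (SD, n = 3), and BCL3 rose by 0.83 on the log2 scale (BCL3 was named after its value was seen).

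In HEK-293T edgeR called none of the 13 NF-kB targets, beside 10.0% of all genes tested. Of the 13, 2 had an unadjusted p under 0.05 and DESeq2 called 1. Without siHNRNPH1 replicate 1 edgeR called 6 of the 13, of which 4 were higher and 2 lower, beside 61.6% of all genes. BIRC3 (-0.03, adjusted p = 0.873) and TRAF1 (-0.05, adjusted p = 0.696) were not among them. The interaction test called 10 of the 13, 9 with a lower and 1 with a higher response in HT-1080. Of all genes it called 19.0%, and 10.8% had a lower response in HT-1080. Without that library it called 12 of the 13, 10 lower and 2 higher, in a fit that called 9535 genes. For BIRC3 the difference of the log2 fold changes was -6.46 (adjusted p = 5.03e-06), and for TRAF1 it was -5.17 (adjusted p = 3.70e-06).

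Receptors changed in both directions. Of 9 tested receptors and natural antagonists, 6 rose, 2 fell and 1 was not called, with a median of 0.66. The scavenging chemokine receptor ACKR3 rose by 2.09, IL11RA, the receptor chain of IL-11, by 1.28 and IL1R1, the signalling receptor of IL-1, by 1.10 on the log2 scale. IL6ST, the shared gp130 subunit, fell from 854 ± 136 to 435 ± 10.6 CPM (SD, n = 3), a log2 fold change of -1.04. Thus the ligand IL11 and its own receptor chain were both higher while the shared subunit was lower. Among 11 genes of gp130 signalling, 6 rose, 3 fell and 2 were not called (median 0.22), and SOCS1, an inhibitor of cytokine signalling, had the largest change (-2.31).

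The 9 tested genes of IL-1 processing and release gave 3 that rose and 6 that fell (median -0.33), and the largest change was that of GSDME, a pore-forming gasdermin (-1.0). Of 15 genes in the list of AP-1, C/EBP and ETS factors, 6 rose, 5 fell and 4 were not called, with a median of 0.10. The list also holds EGR1, a zinc finger factor, and the phosphatases DUSP1 and DUSP6, and without these 3 genes 3 rose, 5 fell and 4 were not called (median 0.01). FOSB (3.28), DUSP1 (1.81), EGR1 (1.53) and CEBPD (1.32) rose, and FOSL1 (-1.61) and ETS1 (-1.35) fell. Of 13 genes of cytokine mRNA decay and stability, 1 rose, 8 fell and 4 were not called (median -0.24). The share called in either direction was near the 65.3% of all genes. By direction, more of the list fell and fewer rose than the 32.6% and 32.7% of all genes. None of the 13 changed by 1 or more on the log2 scale.

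**Figure D4:**
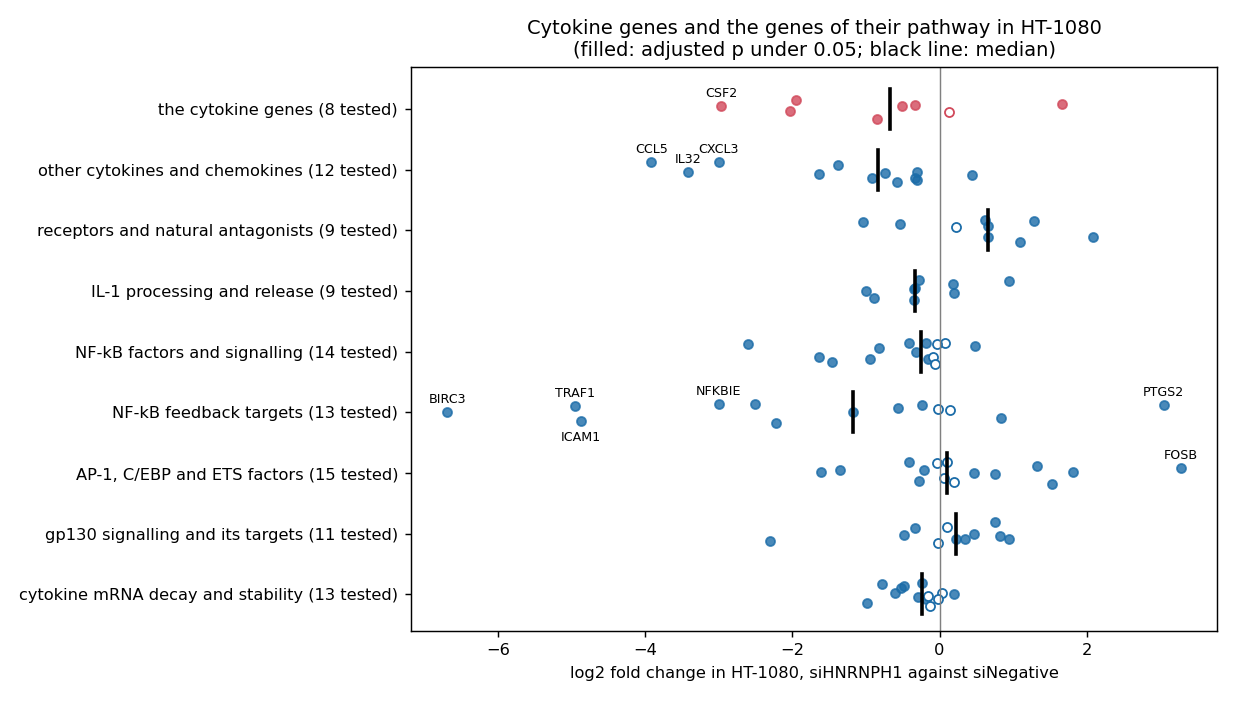
Log2 fold changes in HT-1080 of the tested cytokine genes (red) and of the genes of the 8 pathway lists (blue), 1 point per gene. Filled points had an adjusted p under 0.05 and black lines mark medians, which run from -1.18 for the NF-kB feedback targets to 0.66 for the receptors.

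For each cytokine gene whose mean count in HT-1080 reached 50, the gene with the most similar profile was sought among 12908 genes, by the root mean square difference of centred log2(CPM + 1) over the 12 libraries. CXCL8 and CCL2 were each other's nearest gene, with a difference of 0.094. The nearest gene was SH2D1B for IL1A (0.076), CD44 for IL1B (0.199), ABTB2 for IL6 (0.089), HBE1 for IL11 (0.123), PHLDA2 for LIF (0.157) and IFIH1 for CSF2 (0.135). HBE1, the embryonic epsilon globin gene, stood at 69.2 ± 8.34 and 189 ± 2.98 CPM in the HT-1080 groups (SD, n = 3) and at 0.0371 ± 0.0214 and 0.119 ± 0.0417 CPM in HEK-293T. The profiles share the contrast between the lines, and the measure was computed on the same libraries as the tests. Adding 1 to each CPM flattens differences among levels below 1 CPM. In HEK-293T, siNegative and siHNRNPH1 levels were 0.00275 and 0.0613 CPM for CCL2, and 0.121 and 0.0641 CPM for CXCL8. ABTB2 stood at 69.4 and 10.8 CPM in the siNegative groups of HT-1080 and HEK-293T, and IL6 at 4.83 and 0.0342 CPM. A small difference is therefore not an equal fold change.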

How the data were processed

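Short reads were measured in 12 libraries and full-length cDNA in 4 pools. The authors deposited expected counts for each transcript, estimated with RSEM on build GRCh38.p13 per the submitters' processing notes; the RSEM version, annotation release and use of strand are not given in the sources used here. The deposited IsoSeq files hold exon positions of collapsed, filtered models, per the file names. Of 251295 transcripts per table, expected counts were summed over each of 61906 genes and rounded. All columns were matched through the labels.

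Genes past filterByExpr were scaled by TMM and tested with edgeR 4.0.16 (robust quasi-likelihood, two-sided, R 4.3.3), within a line, for the interaction of line and siRNA over all 12 libraries, and between the siNegative groups. Transcripts of HT-1080 were tested likewise. SE is the absolute log2 fold change divided by the square root of the F statistic of its edgeR test. P-values were Benjamini-Hochberg adjusted over all features of a fit, with a threshold of 0.05. CPM is the count divided by the library total. Bounds use 3 counts over a group, and counting intervals are exact at 95%. Intervals and bounds cover counting error only. Pathway genes are named where called with a log2 change of 1 or more in size, at most 4 per direction and list; transcripts where they hold at least 10% of a gene, apart from 2 minor transcripts of IL11 chosen after their values were seen. The cytokine genes, lists and tests were chosen with earlier results of these data known. Library pairs within groups differed beyond sampling noise (chi-square per degree of freedom 1.74 to 773). In HT-1080, siNegative replicate 2 stood further off, at 16.2 and 15.8 from replicates 1 and 3, which differed from each other by 1.74. On simulated data the HT-1080 gene test recovered 99.5% of 3-fold changes, that of HEK-293T 60.0%, the interaction test 55.5% and the transcript test 22.7%. Of 214 calls in the simulated HT-1080 data, 15 were unchanged genes. The changes were set only in features above a minimum mean count, and all other features were left unchanged. CXCL1 and CXCL8 in HEK-293T lie below that minimum, so these shares do not cover them. Alternatives were RLE scaling, library size alone, other filters, DESeq2 1.42.0, a replicate block, leaving out each library, all 12 libraries in 1 fit, and summed counts of CXCL1 to CXCL3. IsoSeq models were named by overlap with RefSeq genes (GRCh38.p14, names only). Promoter windows are those of RefSeq; LIF and CCL2 have none there.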

Additional observations from a re-analysis of the deposited data

Results flagged for a closer look

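Among the 10 cytokine genes and CXCL3, 4 had a siRNA effect that differed between the lines by edgeR's interaction test, in which 4034 of 21276 genes passed. LIF had a difference of log2 fold change (HT-1080 minus HEK-293T) of -0.91, with HT-1080 lower after siHNRNPH1 in all 3 libraries and HEK-293T higher in all 3. CXCL8 had a difference of -1.20, which 6 of 18 alternatives called. CCL2 had a difference of -5.77, with 1 count in the siNegative libraries of HEK-293T. CXCL3, named in the pathway lists, had a difference of -3.0 (adjusted p = 6.18e-05), with a log2 fold change of -3.0 in HT-1080 and of -0.07 (adjusted p = 0.891) in HEK-293T. Without siHNRNPH1 replicate 1 of HEK-293T the difference was -3.18. It had 45, 60 and 62 counts in HEK-293T with siNegative and 33, 61 and 63 with siHNRNPH1. The part of depth and of the library of HEK-293T that stands apart was not tested beyond the values given with and without it.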

How the results depend on the processing

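The 8 cytokine genes tested in HT-1080 gave 104 values under alternatives, of which 103 kept their direction and their side of the threshold; the exception is IL1A in the fit of all 12 libraries. The count of cytokine genes changed in HT-1080 was 7 in each leave-one-out fit and 6 in the fit of all 12. Over all genes, 10538 were called in HT-1080 and 6237 in the fit of all 12, a fit that shares its spread with HEK-293T; leaving out a library gave 9558 to 11630. In HEK-293T the count depended on the setting: 1997 as reported, 1302 with no filter, 3982 with DESeq2, 4551 in the fit of all 12, and 0 to 12553 when leaving out a library, the highest without siHNRNPH1 replicate 1 and 0 without siNegative replicate 2 or 3, where 3517 and 3486 had an unadjusted p under 0.05. Interaction calls were 4034 as reported and 2776 to 9535 when leaving out a library, the highest without siHNRNPH1 replicate 1 of HEK-293T. HT-1080 transcripts numbered 10398 as reported and 6038 to 9622 when leaving out a library, and genes that differed between the siNegative groups 17125 and 15610 to 18004. The causes were not tested. The direction turned for CXCL1 in HEK-293T without siHNRNPH1 replicate 2 (0.03) or 3 (0.07), in a leave-one-out range of -0.69 to 0.07, and for CXCL2 in HEK-293T without siNegative replicate 1, in a range of -0.12 to 0.25, and with CXCL1 to CXCL3 summed (-0.02). Same-numbered libraries share only a number, with correlations of their deviations of -0.061 to 0.053. With the replicate number as a block, edgeR called 0 genes in HEK-293T (4169 at an unadjusted p under 0.05), 2535 in the interaction and 4886 transcripts, and still 7 cytokine genes in HT-1080. Low counts limit the values of IL11, CXCL1, CXCL2 and CXCL8 in HEK-293T, with at most 40 counts in a library.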
